A study of Mus musculus with 2 samples.

Results

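The genes described are the cytosolic ribosomal protein genes of mouse pancreatic ductal adenocarcinoma, measured by droplet single-cell RNA sequencing. They were taken by symbol (Rpl or Rps followed by a digit, with Rplp0, Rplp1, Rplp2 and Rpsa), leaving out pseudogene symbols ending in -ps and the S6 kinases. Of 55361 features in the deposited tables, 94 had such a symbol, and 85 of these reached 50 CPM, a gene's UMIs in each 1000000 UMIs, in at least 1 library. Of the 85 members, 50 had Rpl-type symbols, for the large subunit, and 35 had Rps-type symbols, for the small subunit. UMIs, unique molecular identifiers, each count 1 captured mRNA copy. The study had 2 libraries: a whole-tumour one, and one of cells gated on high CD9, a surface tetraspanin, called CD9hi. Both came from the KPFRR mouse model, with KrasFSF-G12D/+ and Trp53frt/frt, the driver Pdx1-Flp, and both Rosa26mTmG and Rosa26FSF-creER, so the groups shared every allele. Flp under the Pdx1 promoter acts in the pancreatic lineage, live cells were gated on GFP or CD9, and what such a gate sets cannot be told apart from other differences between the libraries. Tumours were digested with collagenase V and TrypLE, and the ages and number of mice or tumours pooled were not given in the sources used here. With 1 library a group there was no replicate check and no test was made. Intervals are 95% intervals and cover counting error only.

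Each ribosome is built from a small subunit, which reads the mRNA, and a large subunit, which joins the amino acids. Their proteins are made in matched amounts and assembled with ribosomal RNA in the nucleolus, and surplus free protein is degraded. In vertebrates the mRNAs of these genes begin with a cytosine followed by an unbroken run of pyrimidines, the 5′ terminal oligopyrimidine (TOP) motif, through which growth signals acting on mTORC1 control their translation. The exocrine pancreas, which makes digestive enzymes, is among the tissues with the highest rates of protein synthesis.

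The start of each transcript is shown for the members on which the comparisons turn, since the TOP run is read from the first base. RefSeq promoters of mouse build GRCm38.p6 matched 64 of the 85 members, and Rpl23a, Rpl30, Rpl7, Rpl32, Rplp1 and Rps4l were among the 21 without an entry. Each line gives 30 bases, 15 before and 15 from the annotated start, 5′ to 3′ on the gene's own strand, and capitals mark a run of at least 6 C or T that begins with C within 5 bases of the start.
Rps27, chr3:90213634-90213663, minus strand: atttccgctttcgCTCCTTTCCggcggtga
Rps27rt, chr9:114982725-114982754, minus strand: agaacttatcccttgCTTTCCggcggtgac
Rpl37, chr15:5116598-5116627, plus strand: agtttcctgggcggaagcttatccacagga
Rpl37rt, chr5:115110254-115110283, minus strand: gtcttcaggccagagcccgcacccagcagt
Rpl38, chr11:114668565-114668594, plus strand: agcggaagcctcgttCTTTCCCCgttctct
Rps2, chr17:24720048-24720077, plus strand: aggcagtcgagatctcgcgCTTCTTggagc
Rps6, chr4:86857353-86857382, minus strand: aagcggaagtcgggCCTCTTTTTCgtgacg
Rpl22, chr4:152325711-152325740, plus strand: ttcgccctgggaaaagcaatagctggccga
Rpl22l1, chr3:28805493-28805522, plus strand: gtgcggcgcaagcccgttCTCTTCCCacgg
Rpl41, chr10:128549154-128549183, minus strand: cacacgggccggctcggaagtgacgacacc

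A run of this kind lay at the annotated start of 26 of the 64 matched members (40.6%) and of 2759 of 27025 RefSeq promoters (10.2%). On the reverse strand of the same windows it was found in 3 members (4.69%) and in 12.7% of all promoters. The longest stretch shared by the windows of Rps27 and its copy Rps27rt was 14 bases, and that of Rpl37 and Rpl37rt was 4. Annotated starts can lie some bases from the start used, and a window without a run says only that these letters are not in it. The file values themselves carry no position within the transcript.

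Before filtering there were 3082 whole-tumour barcodes (48287984 UMIs) and 5500 CD9hi barcodes (120451299 UMIs). Kept barcodes had 500 genes and 1000 UMIs or more and no more than 20% of UMIs from mitochondria, which left 2550 and 5092, with medians of 17686 and 21791.5 UMIs. Only 2 barcode sequences occurred in both libraries, counted before filtering. Epcam, the defining epithelial surface protein, stood at 1925 CPM for the whole tumour against 1052 for CD9hi, and Vim, the mesenchymal intermediate filament, at 1139 and 4862 CPM. All 8 ductal and tumour epithelium markers were measured, summing to 12197 CPM (whole tumour) and 7781 CPM (CD9hi). Summed levels in the whole tumour and CD9hi were 59403 and 200.1 CPM for 32 acinar enzymes, 1160 and 243 CPM for 7 islet genes and 35.6 and 166 CPM for 8 fibroblast genes. They were 14.8 and 126 CPM for 10 macrophage or monocyte genes, 89.7 and 40.0 CPM for 7 lymphocyte genes and 1.23 and 10.0 CPM for 5 endothelial genes. The erythroid genes summed to 0 and 0.22 CPM.

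Ribosomal protein mRNAs were a large part of all UMIs in both libraries, and the sign of the small difference between them depended on which barcodes were counted. In the whole tumour 7394641 of 46270361 UMIs, or 15.98% (15.97 to 15.99), were from the 85 members. In CD9hi the share was 17.32% (17.32 to 17.33), a log2 ratio of CD9hi over whole tumour of 0.12. The median barcode had 15.2% in both libraries, but the upper tail was longer in CD9hi, with a 95th percentile of 33.1% against 25.8%. In CD9hi 605 barcodes (11.9%) had a share of at least 25%, and of these 491 (81.2%, 77.8 to 84.2) had under 1000 CPM of Malat1, a nuclear RNA. Of whole-tumour barcodes 163 (6.39%) had such a share, of which 15 (9.20%, 5.24 to 14.7) had that little Malat1. Among the 2207 and 4475 barcodes with under 10% acinar enzyme UMIs and at least 1000 CPM of Malat1, the whole tumour had the larger share, 16.7% against 15.7%, and the log2 ratio was -0.09. With 1.5-fold taken as a rule of size, 0 members were higher in CD9hi there, beside 16.6% of features at 50 CPM or more, and 2 were lower, beside 9.10%. There 26 members lay above 0 and 59 below, where over all kept barcodes 57 lay above and 28 below. These counts are against 0 only. Against the median of all features at 50 CPM or more, most members lay below in each set. Over all kept barcodes that median was 0.25, with 21 members above and 64 below. In the restricted barcodes it was 0.17, with 5 above and 80 below.

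Of the mRNAs for the stalk, the arm of the large subunit that recruits translation factors, Rplp1 and Rplp0 were among the most abundant. With the whole tumour given first, Rplp1 was at 4250 and 4876 CPM, Rplp0, the stalk base, at 3547 and 4254 CPM, and Rplp2 at 2133 and 2485 CPM. The medians over members other than copies, relatives and a binding partner of ribosomal proteins were 2043 and 2277 CPM. Rpl41, the smallest ribosomal protein, was at 4178 CPM and led CD9hi at 5262 CPM. Rpl32, another large-subunit protein, was at 4218 and 5016 CPM. The same 3 genes, Rplp1, Rpl32 and Rpl41, held the top ranks of both libraries. Counts are of 3′ ends, so no level is per transcript length, and a level reflects mRNA copies captured. Relatives, copies and a binding partner of ribosomal proteins formed the low end, with 8 such members at 53.1 to 478 CPM in the whole tumour, beside 77 others at 278 to 4250 CPM.

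UMIs of the large and small subunits kept a narrow ratio. Large-subunit over small-subunit UMIs came to 1.18 in the whole tumour and 1.24 in CD9hi. Over 25 sets of at least 50 barcodes of each library, all kept barcodes among them, cut by Malat1, Epcam, Vim, acinar enzymes or depth, the ratio ran from 1.13 to 1.26 in the whole tumour and from 1.22 to 1.26 in CD9hi. The sets of a library overlap in their barcodes. The share of UMIs in all members ran far wider over the same sets, from 8.91% to 21.4% in the whole tumour and from 12.8% to 31.5% in CD9hi.

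Single members kept close to each other between the libraries, as the plot of ranked ratios shows. The median log2 ratio of the 85 members was 0.08 with a standard deviation over members of 0.23, beside a median of 0.25 over the 3186 features at 50 CPM or more. By the 1.5-fold rule, 1 member was higher in CD9hi, beside 21.6% of all features, and 2 were lower, beside 8.73%. Measured from the members' own median, 0 members lay 1.5-fold above and 2 below, where 10.1% and 13.2% of all features did so from theirs. The highest was Rpl23a, which lies beside the exit of the peptide tunnel, at 515 CPM (509 to 522) and 815 CPM (810 to 820), a log2 ratio of 0.66 (0.64 to 0.68). Rpl38, whose loss in mice alters the axial skeleton through the translation of Hox mRNAs, was at 2043 and 3050 CPM, a log2 ratio of 0.58 (0.57 to 0.59). The next were Rps2, of the small subunit's mRNA entry side, at 0.44, Rps28, of its mRNA exit side, at 0.40, and Rpl6, of the large subunit, at 0.38.

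**Figure D1:**
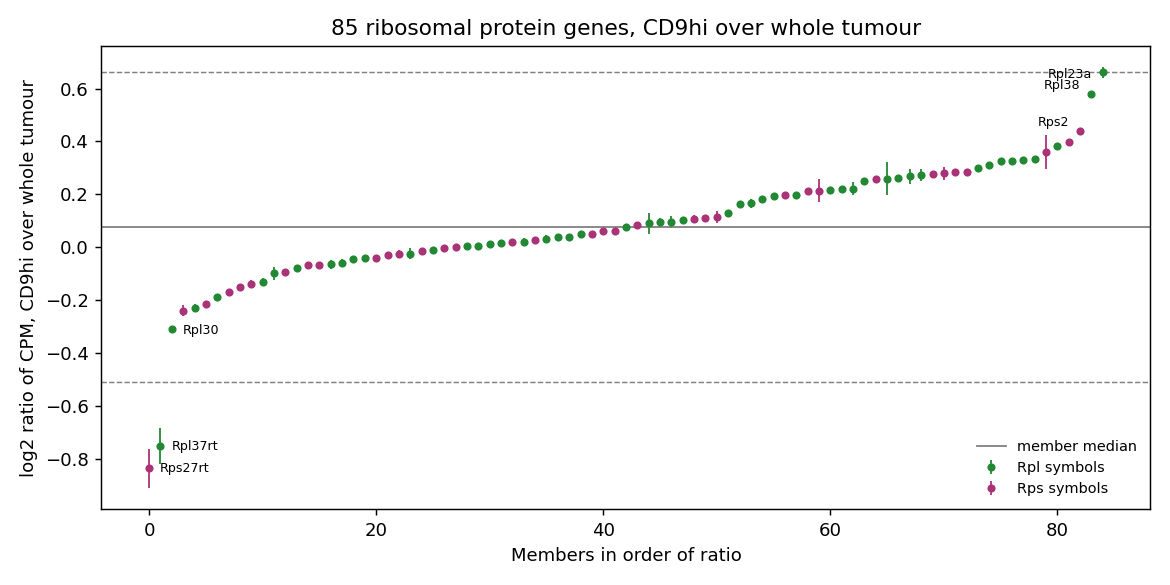
Log2 ratio of CPM in CD9hi over whole tumour for the 85 members in order, with 95% counting intervals, Rpl symbols in green and Rps symbols in purple; the solid line is the member median of 0.08 and the dashed lines lie 1.5-fold either side. Rps27rt and Rpl37rt alone lie outside the dashed lines, and Rpl23a lies at the upper one.

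The 2 members farthest below the rest were retrocopies, genes that arose from a processed mRNA. Rps27rt had 53.1 CPM (51.1 to 55.3) in the whole tumour against 29.7 (28.8 to 30.7) in CD9hi, a log2 ratio of -0.84 (-0.91 to -0.76). Rpl37rt was at 63.0 CPM (60.7 to 65.3) and 37.4 CPM (36.3 to 38.5), a log2 ratio of -0.75 (-0.82 to -0.69). Their parent genes did not share this difference: Rps27, of the small subunit, was at 2185 and 2277 CPM, and Rpl37, of the large subunit, at 2711 and 2961 CPM. Rps27rt took 2.37% (2.28 to 2.47) of the UMIs of Rps27 and itself in the whole tumour and 1.29% (1.25 to 1.33) in CD9hi, and Rpl37rt took 2.27% and 1.25% beside Rpl37. Over the 25 sets of barcodes, Rps27rt stood at 2.03% to 2.59% of the level of Rps27 in the whole tumour and at 0.83% to 1.33% in CD9hi. Rpl37rt stood at 2.22% to 2.50% of Rpl37 and at 1.13% to 1.37%. The sets cut the same barcodes of 1 library each, so these ranges are no spread over replicates. Between annotated transcripts, Rps27rt matched Rps27 at all 341 aligned bases and Rpl37rt matched Rpl37 at 343 of 344. The share of 50-base words unique among mouse transcripts was taken over the last 400 bases of 1 annotated transcript per gene. It was 8.92% for Rps27rt and 1.35% for Rps27, against 82.3% for Rpl37rt and 100% for Rpl37. The transcript ends used in these cells are not known. Reads of Rps27 and Rps27rt can be exchanged in counting, so the values of that pair are uncertain. Rpl37rt and Rpl37 had annotated transcripts of 682 and 835 bases, and reads from their aligned 344 bases can be exchanged too. Which pair is the more uncertain was not tested.

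Symbols under the minimum had few UMIs. Of 9 symbols under the minimum of 50 CPM, 7 had UMIs in both libraries and all 7 had a lower CPM in CD9hi, beside 57.1% of the 21334 features under 50 CPM with UMIs in both. The nearest to the minimum was Rpl6l, at 19.4 CPM in the whole tumour and lower in CD9hi, while just inside it lay Rps27rt at 53.1, Rpl37rt at 63.0, Rps19bp1 at 71.8 and Rpl7l1 at 72.1 CPM in their higher library. Rps3a2 was at 12.4 and 8.91 CPM, Rps3a3 at 8.62 and 5.38 CPM and Rpl32l at 5.17 and 3.01 CPM. Rps12l1 had 34 and 39 UMIs and Rps23rg1 had 7 and 11. Among relatives known from other tissues, the muscle gene Rpl3l had 14 and 6 UMIs, and the testis gene Rpl39l had 0 and 3. The testis gene Rpl10l had 0 UMIs in both, which, at 3 counts, allows up to 0.0648 CPM (whole tumour) and 0.0251 CPM (CD9hi). Pseudogene features with -ps symbols, 322 in number, summed to 1232 and 846 CPM, or 0.771% and 0.489% of the members' own UMIs.

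At the low end of the other members, Rpl30, of the large subunit, had 1629 CPM in the whole tumour against 1314 in CD9hi, a log2 ratio of -0.31 (-0.32 to -0.30). Rps6, the small-subunit protein phosphorylated by the S6 kinases, was at 610 and 517 CPM, a ratio of -0.24, and Rpl7, of the large subunit, at 1197 and 1021 CPM, a ratio of -0.23. The libraries were also compared within 3 Epcam and 3 Vim classes, which divide the same barcodes of the same libraries and are no independent repeats. In all 6, 22 members lay above and 23 below the member median. The same count was not made over all features, so it is not read as a trait of the members. Relative to that median Rpl38 ran from 0.31 to 0.71, Rpl23a from 0.16 to 0.61, Rpl6 from 0.30 to 0.36 and Rps28 from 0.24 to 0.36. Rps27rt ran from -1.04 to -0.73, Rpl37rt from -0.99 to -0.64 and Rpl30 from -0.51 to -0.18.

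The share of ribosomal protein mRNAs differed by the level of Malat1, and at its low end the whole-tumour direction turned with what was counted. In CD9hi the share was 31.5% in 613 barcodes under 1000 CPM of Malat1, 19.1% in 713 at 1000 to 10000 CPM, 16.0% in 2257 at 10000 to 30000 CPM and 13.1% in 1509 above. In the whole tumour it was 8.91% in 216 barcodes, then 18.8% in 516, 16.7% in 1209 and 14.0% in 609. From the second class on, both libraries had less in each class than in the one before, and the lowest class departed in the whole tumour. Across the upper 3 classes, 82 of 85 members had a falling order of levels in the whole tumour, beside 26.0% of features, and 85 of 85 in CD9hi, beside 38.4%. With the lowest class included, the order was falling over the 4 classes for 82 members in CD9hi, beside 21.0%, and 0 in the whole tumour, beside 2.80%. Malat1 is itself part of each total, and with mitochondrial, Malat1 and enzyme UMIs taken out of it the shares were 32.9%, 19.8%, 16.8% and 14.2% in CD9hi and 19.0%, 20.7%, 18.05% and 15.3% in the whole tumour. The log2 ratio of the lowest over the third class was then 0.077 in the whole tumour, where it was -0.91 of all UMIs, and 0.96 in CD9hi, where it was 0.98.

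**Figure D2:**
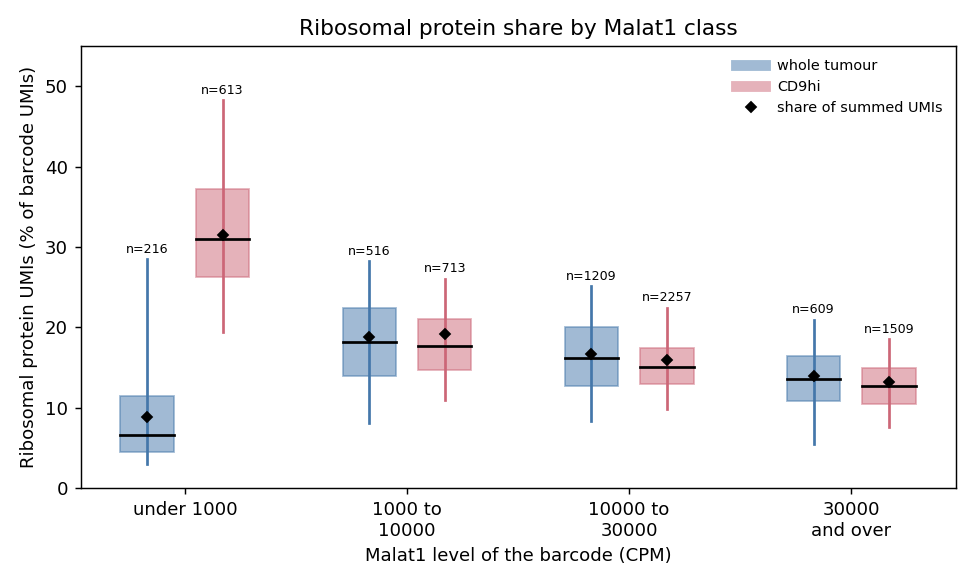
Percent of each barcode's UMIs in ribosomal protein genes by the barcode's Malat1 level, in the whole tumour (blue) and CD9hi (red); boxes span the 25th to 75th percentile with the median as a black line, vertical lines run from the 5th to the 95th percentile, and diamonds are the share of summed UMIs. Under 1000 CPM of Malat1 the CD9hi diamond lies at 31.5% and the whole-tumour diamond at 8.91%.

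The barcodes low in Malat1 differed between the libraries in what else they held. In the whole tumour, 183 of the 216 (84.7%) had at least 10% acinar enzyme UMIs, enzymes took 52.5% of all their UMIs, and the median was 1093 genes. In CD9hi all 613 had under 1% enzyme, the median was 2366 genes at 17800 UMIs, Vim was at 5308 CPM and Epcam at 45.8 CPM, beside 1138 CPM of Epcam at 10000 to 30000 CPM of Malat1. Besides Malat1, which defined the class, 4 nuclear-retained RNAs were measured and all 4 were 1.5-fold lower, beside 49.5% of features, the least of them Kcnq1ot1 at a log2 ratio of -4.55, and mitochondrial UMIs made up 4.29% against 3.02%. Erythroid genes summed to 0.41 CPM and macrophage or monocyte genes to 1.96 CPM. Of 8 fibroblast genes 2 were measured and both were higher, Dcn at a log2 ratio of 1.86 and Pdpn at 1.64, while the list summed to 163 CPM against 154. The part of lost nuclei, RNA quality or cell type in the share was not tested. Only 25 whole-tumour barcodes had under 1000 CPM of Malat1 and under 1% enzyme, fewer than the 50 set as a minimum, and their share was 24.2%. Within under 1% enzyme the log2 ratio to 10000 to 30000 CPM of Malat1 was thus 0.58 (0.57 to 0.59), the same direction as in CD9hi. Median depth was 3036 UMIs in these 25 barcodes against 18083 in the class they were compared with, and its part was not tested.

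Within CD9hi, 79 of the 85 members were at least 1.5-fold higher in the barcodes low in Malat1 than at 10000 to 30000 CPM, beside 14.5% of features, and 0 were lower, beside 49.5%. The median log2 ratio of the members was 0.91, beside -0.57 over all features. Rpl36a, an X-linked gene of the large subunit, led with 2449 against 965 CPM, its log2 ratio being 1.34 (1.32 to 1.36). Rps12, of the small subunit's beak, was at 7694 against 3086 CPM and Rpl32 at 10652 against 4399 CPM, ratios of 1.32 and 1.28. The lowest were members that are not core ribosomal proteins. Rps19bp1, a nucleolar binding partner of Rps19, had 72.5 against 71.0 CPM, a ratio of 0.03 (-0.08 to 0.14). Rpl7l1, a nucleolar relative of Rpl7, stood at 0.16 and Rps4l, a relative of the X-linked Rps4x, at 0.24. Rpl7 itself was the lowest core member, at 0.45. In the whole tumour the same contrast left 76 members 1.5-fold lower, beside 94.5% of features, with 0 higher beside 3.08%, and the member median was -0.94 beside -2.11 over all features. Relative to the member median, Rpl41 at 0.51, Rpl38 at 0.47 and Rps6 at 0.45 lay highest there, and Rps4l at -2.23, Rpl7 at -0.56 and Rps27rt at -0.50 lowest.

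Acinar enzymes, the digestive enzymes that define acinar cells, divided the whole tumour but hardly CD9hi, where 5086 of 5092 barcodes had under 1%. Members took 16.1% of UMIs in 1992 barcodes with under 1% enzyme, 21.4% in 248 with 1 to 10% and 10.5% in 310 with at least 10% there, so the share was highest in the middle class. The highest over the lowest enzyme class gave a log2 ratio of -0.62, with 49 members 1.5-fold lower, beside 89.7% of features, and 0 higher, beside 4.25%. Enzymes themselves filled 43.6% of UMIs in the highest class. Without enzyme, Malat1 and mitochondrial UMIs in the total, the shares were 17.2%, 23.4% and 19.2%, and the ratio turned to 0.15. The highest class had a median of 1791.5 genes at 17156.5 UMIs, against 4111 genes at 17544.5 UMIs in the lowest, and Malat1 at 5825 against 22493 CPM. All 3 measured genes of the 5 acinar identity factors were 1.5-fold higher there and 7 of 8 ductal and tumour epithelium markers were lower, near the 89.7% of all features. Their part in the share was not tested.

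Across the enzyme classes most members stayed within 1.5-fold of the member median, and Rps4l and Rps19bp1 fell farther. Rps4l was at 145 CPM under 1% enzyme, 107 CPM at 1 to 10% and 25.7 CPM above, a log2 ratio of -2.49 (-2.74 to -2.26) that lay 1.88 below the member median. Rps19bp1 was at 61.3, 55.6 and 23.99 CPM, a ratio of -1.35 (-1.61 to -1.11), and Rpl19, a core large-subunit protein, at 2760, 2195 and 1236 CPM, a ratio of -1.16. Rpl36a at 1086, 1781 and 1013 CPM was nearly level between the outer classes, with a ratio of -0.10, followed by Rps6 at -0.15 and Rpl10, an X-linked gene for a protein that joins the large subunit late in its assembly, at -0.25. Each of these 3 was highest in the middle class, Rps6 at 950.1 CPM and Rpl10 at 2656 CPM. Relative to the member median, 0 members lay 1.5-fold above, beside 19.2% of features, and 2 below, beside 20.2%.

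Cut by Epcam or by Vim alone, the members' share differed between the highest and lowest class in opposite directions in the libraries. These classes held barcodes with under 10% enzyme and at least 1000 CPM of Malat1. In the whole tumour the share was 14.5% in 253 barcodes under 500 CPM of Epcam, 18.7% in 595 at 500 to 1500 CPM and 16.2% in 1359 above, a log2 ratio of the highest over the lowest class of 0.16. In CD9hi it was 16.9% in 1965, 15.03% in 1226 and 14.2% in 1284, a ratio of -0.26. From the middle to the highest Epcam class the share was lower in both libraries. By Vim, the whole tumour had 17.9% in 1552 barcodes under 1000 CPM, 14.9% in 408 at 1000 to 4000 CPM and 12.9% in 247 above, a ratio of -0.46. CD9hi had 14.9% in 566, 15.6% in 1452 and 15.9% in 2457, a ratio of 0.10. The whole tumour was thus lowest, and CD9hi highest, where Vim was highest.

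**Figure D3:**
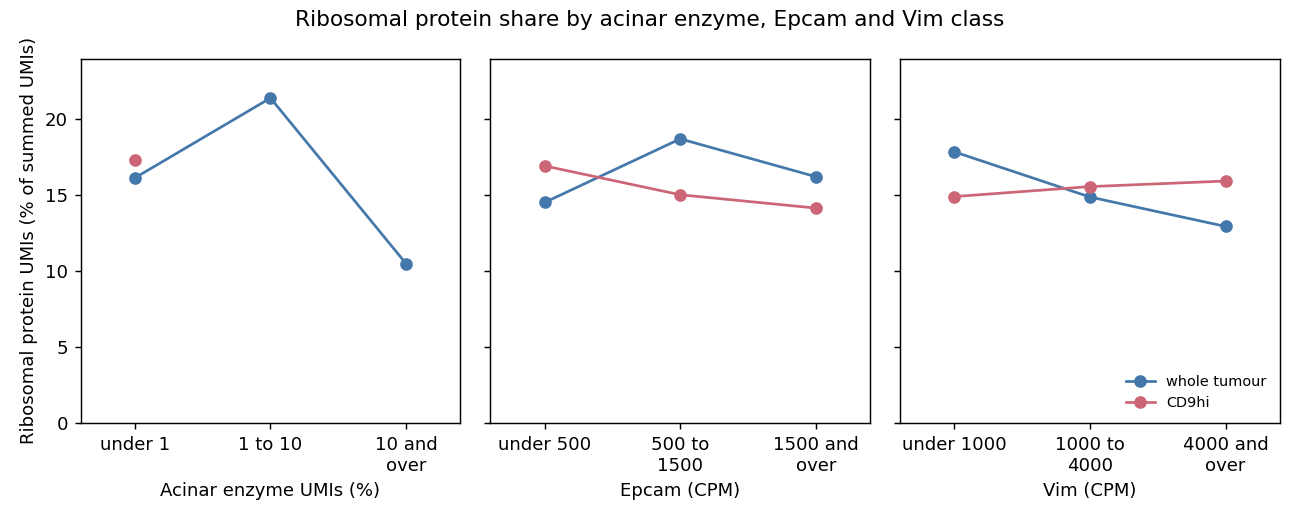
Share of summed UMIs in ribosomal protein genes (percent) by acinar enzyme class over kept barcodes, and by Epcam and Vim class over barcodes with under 10% enzyme and at least 1000 CPM of Malat1, for the whole tumour (blue) and CD9hi (red). Classes of fewer than 50 barcodes are left out, and across Vim the share goes from 17.9% to 12.9% in the whole tumour and from 14.9% to 15.9% in CD9hi.

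Cut by both genes at once, the share was lower at higher Epcam in both libraries, at either Vim level. At higher Vim it was lower in both where Epcam was at least 1000 CPM, and differed in direction only at lower Epcam. Barcodes with at least 1000 CPM of Epcam and at least 3000 CPM of Vim had the lowest share in each library, 11.8% in 144 whole-tumour barcodes and 14.0% in 827 of CD9hi. With little Vim and at least 1000 CPM of Epcam, the share was 17.3% in 1540 and 14.7% in 920. With little Epcam and at least 3000 CPM of Vim, it was 14.5% in 222 and 16.5% in 2219, and with little of both, 17.95% in 301 and 16.3% in 509. Barcodes under 500 CPM of Epcam also held more RNA of other cell types, with islet genes summing to 7784 CPM (whole tumour) and 516 CPM (CD9hi), against 327 and 2.28 CPM at 1500 CPM or more. Fibroblast genes summed there to 326 and 324 CPM, against 4.72 and 6.16 CPM. Macrophage or monocyte genes summed to 719 CPM in CD9hi barcodes under 1000 CPM of Vim and to 26.2 CPM at 4000 or more. In the whole tumour, islet genes summed to 1803 CPM under 1000 CPM of Vim and to 5.07 CPM at 4000 or more. Acinar enzymes took 0.67% and 0.15% of UMIs in these 2 whole-tumour classes. The part of those cells in the shares was not tested.

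Depth moved with the share as well. In the same barcodes the members took 14.1%, 16.0%, 17.3% and 18.9% of UMIs in the whole tumour at under 10000, 10000 to 20000, 20000 to 40000 and at least 40000 UMIs, the last from 44 barcodes. In CD9hi they took 12.8%, 14.0%, 15.4% and 19.4%. Median depth was 17343 UMIs under 1000 CPM of Vim and 20160 at 4000 CPM or more in the whole tumour, where the share was lower at high Vim. It was 18800.5 and 23350 in CD9hi, where the share was higher at high Vim. The part of depth in the class differences was not tested.

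Across Epcam few members left the rest. At high Epcam 1 member was 1.5-fold higher in the whole tumour, beside 9.95% of features, and 0 lower, beside 9.69%. It was Rpl22l1, the paralogue of the RNA-binding large-subunit protein Rpl22, at 334 CPM under 500 CPM of Epcam, 501 CPM between and 532 CPM above, a log2 ratio of 0.67 (0.59 to 0.75). Relative to the member median, Rps7, of the small subunit, at 0.25 and Rpl3, of the peptidyl transferase side, at 0.24 followed, and Rps4l at -0.47, Rpl23a at -0.36 and Rpl13a, of the large subunit, at -0.31 lay lowest. In CD9hi, of 83 members at 50 CPM or more in these classes, 0 were higher, beside 10.5% of features, and 0 lower, beside 9.29%. There Rpl7 stood highest against the member median, at a log2 ratio of 0.16 (0.14 to 0.18) where the median was -0.27, followed by Rpl37a at 0.01 and Rps3, of the mRNA entry side, at -0.02. Rpl36a was lowest at -0.56, followed by Rps27a, a ubiquitin fusion, at -0.53 and Rps23, of the decoding centre, at -0.52.

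Across Vim, 17 members were 1.5-fold lower in the whole tumour, beside 11.1% of features, and 0 higher, beside 19.0%. Rps27 was the lowest, at 2576, 1780 and 1478 CPM over the 3 classes, a log2 ratio of -0.80, and Rps27rt lay beside it at 63.1, 45.0 and 36.3 CPM. In CD9hi 1 member was 1.5-fold higher, beside 7.45% of features, and 0 lower, beside 8.99%. That member was again Rpl22l1, and its direction differed between the libraries, a difference that was not tested. It was at 565, 381 and 326 CPM over the Vim classes of the whole tumour, a log2 ratio of -0.79 (-0.87 to -0.72), and at 317, 420 and 485 CPM in CD9hi, a ratio of 0.61 (0.56 to 0.66). Rpl22 was at 1856, 1631 and 1452 CPM and at 1554, 1552 and 1525 CPM. Rps4l lay highest in the whole tumour, at 136, 150.4 and 154 CPM, a ratio of 0.18 (0.06 to 0.29) beside a member median of -0.45. Rps19bp1 at 0.10, Rpl23a at 0.09 and Rpl7l1 at 0.06 were the only others above 0 there. In CD9hi Rps23 at 0.37 and Rpl8 at 0.33 followed Rpl22l1, and Rpl7 at -0.18, Rpl37a at -0.14 and Rpl37rt at -0.13 were lowest.

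**Figure D4:**
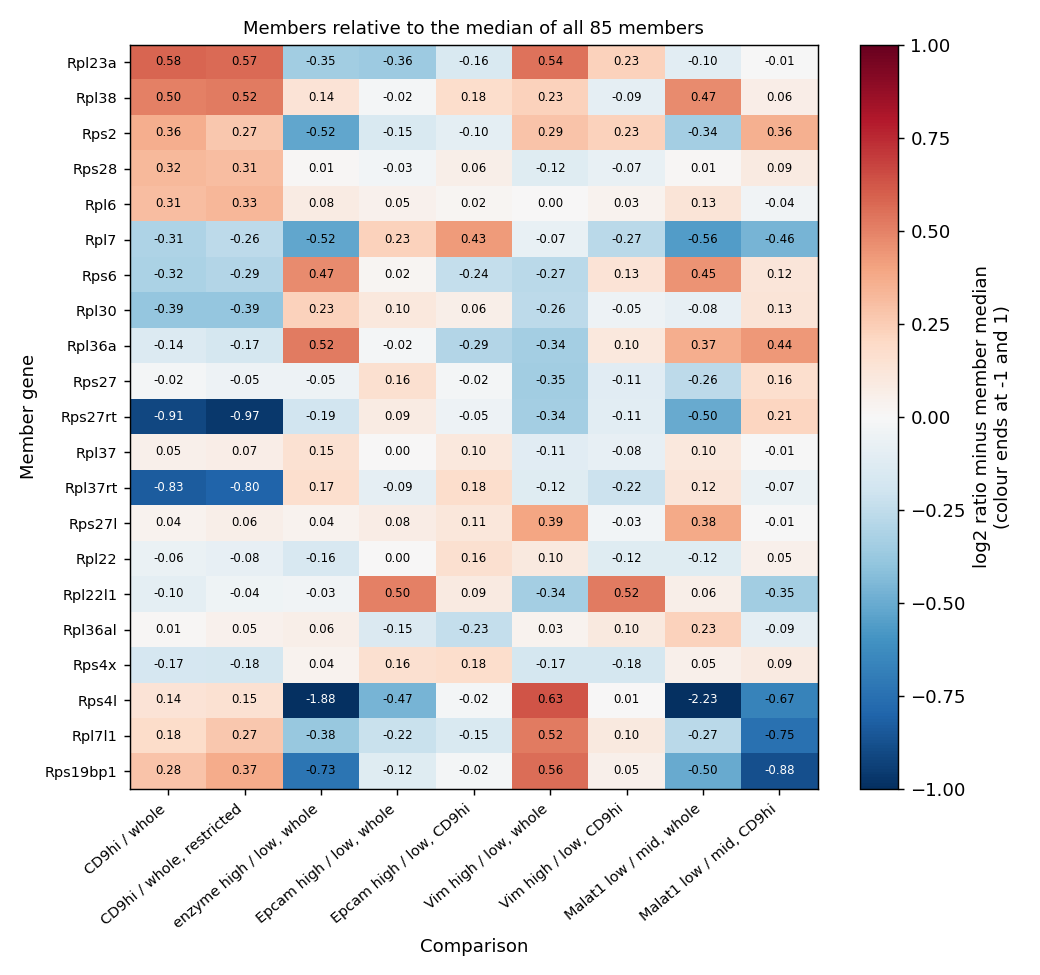
Log2 ratios of 21 named members, each minus the median of all 85 members in that comparison, over 9 comparisons between libraries or between barcode classes; restricted means under 10% acinar enzyme and at least 1000 CPM of Malat1, and colours end at -1 and 1. Rps27rt and Rpl37rt are dark blue in the 2 columns between libraries, and Rps4l in the acinar enzyme and low Malat1 columns of the whole tumour.

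Pairs of a ribosomal protein and its relative thus behaved unequally. The level of Rps4l was 1.15% to 9.78% of that of Rps4x over the sets of whole-tumour barcodes and 4.27% to 8.10% over those of CD9hi. Rps27l, a relative of Rps27 known as a p53 target, was at 421 and 456 CPM in the libraries and at 14.7% to 33.4% of Rps27 over the whole-tumour sets. Rpl22l1 was at 478 and 470 CPM in the libraries. Rpl36al, an autosomal relative of Rpl36a, was at 139 and 148 CPM, and took 10.8% and 11.9% of the UMIs of the pair. Rpl7l1 was at 60.3 and 72.1 CPM. Their transcripts were far less alike than those of the retrocopies, with identities over aligned bases of 77.5% for Rps4l, 76.4% for Rps27l, 68.9% for Rpl22l1, 83.4% for Rpl36al and 56.9% for Rpl7l1.

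How well reads can be placed differs between members. In the last 400 bases of annotated transcripts, 25 of 85 members had under 20% of their 50-base words unique among mouse transcripts and 27 had at least 80%. Some of the transcripts taken were long, at 3706 bases for Rps20 and 2045 for Rpl5. A high percentage says little where cells use another transcript end. The percentage was 13.7% for Rpl23a, 15.7% for Rps2, 11.97% for Rps6 and 0% for Rpl36a, against 47.9% for Rpl38, 49.3% for Rps28 and 87.5% for Rpl6. Across the 85 members it had a Pearson correlation of 0.12 and a Spearman correlation of 0.16 with the ratio between libraries, described over genes that share libraries and are not replicates. Members with few unique words are uncertain in level.

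Other genes of the ribosome and of translation are read beside all features, of which 21.6% were 1.5-fold higher in CD9hi and 8.73% lower, with a median of 0.25. Ribosome components whose symbols fall outside the rule lay close to the members. Fau, which encodes a ubiquitin-like fusion with a small-subunit protein, was at 2922 and 3417 CPM, and Rack1, the scaffold on the small subunit, at 2032 and 2243 CPM. Translation factors and other TOP mRNAs, 22 in number, had 0 members 1.5-fold apart in either direction and a median of 0.13, from Eef2, the translocation factor, at 0.43 to Gas5, a snoRNA host RNA, at -0.48. Of 25 measured ribosome biogenesis factors, 7 were 1.5-fold higher in CD9hi and 0 lower, with a median of 0.42, a count near the background, from Ddx21, an RNA helicase of the nucleolus, at 1.06 to Brix1, a large-subunit assembly factor, at -0.11. The 3 measured genes of RNA polymerase I transcription had a median of 0.42, with Ubtf the highest at 0.50 and Polr1d the lowest at 0.25. Mitochondrial ribosomal protein genes, 50 of them measured, had 3 higher, 1 lower and a median of -0.03, from Mrpl13 at 0.91 to Mrps34 at -0.66.

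In the CD9hi barcodes low in Malat1, 14.5% of all features were 1.5-fold higher and 49.5% lower, with a median of -0.57. Fau and Rack1 were both 1.5-fold higher, at log2 ratios of 0.80 and 0.75. The TOP list had 5 higher and 2 lower of 22, from Eef1g, of the elongation factor complex, at 1.22 to Eif4a2, an initiation helicase, at -1.42. The biogenesis list had 5 higher and 7 lower of 26, with a median of -0.40, from Nop10, a snoRNP protein, at 0.93 to Gnl3, a nucleolar GTPase, at -2.67. The mitochondrial ribosomal protein list had 14 higher and 4 lower of 46, its median being 0.32, from Mrpl13 at 1.30 to Mrpl43 at -1.50. No difference between lists was tested.

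The members lie on 19 chromosomes in GENCODE M21, a GRCm38 annotation, and their ratios between the libraries are described by chromosome with no test of their spread. Of 7 members on chromosome 11, 6 lay above the member median, with Rpl23a and Rpl38 the highest and Rpl26 at 0.02 the lowest, and their median was 0.27. All 4 on chromosome 10 lay above it, from Rps12 at 0.11 to Rpl41 at 0.33, but 3 of 4 among barcodes with under 10% enzyme and at least 1000 CPM of Malat1. Of the 4 on chromosome 3 and the 5 on chromosome 4, 0 lay above it. In those restricted barcodes, 1 of the 5 on chromosome 4 lay above the member median. Over all kept barcodes, 10 of 14 on chromosome 7 lay below the member median, from Rps9, of the small subunit, at -0.21, and the median was -0.03. The 5 on chromosome 15 ran from Rpl30 at -0.31 over Rpl3 at -0.04, Rpl37 at 0.13 and Rpl8 at 0.33 to Rps19bp1 at 0.36. Other genes at 50 CPM or more had medians of 0.38 on chromosome 11, 0.39 on chromosome 10, 0.20 on chromosome 7 and 0.27 on chromosome 15. Their medians were 0.21 on chromosome 3 and 0.24 on chromosome 4, near the 0.25 of all features. On chromosome 17, 5 of 7 members lay above the member median, their median being 0.28, while other genes had 0.21. On chromosome 6, 2 of 2 members lay above it, with a median of 0.23, while other genes had 0.08. On each of chromosomes 8, 14 and 18, 0 of 2 members lay above it, while other genes had 0.26, 0.25 and 0.34. On chromosome X, 3 of 4 members lay below it, while other genes had 0.15. Of all features at 50 CPM or more, 66.4% lay above the member median. Over the 13 chromosomes with at least 3 members, the medians of members and of other genes had a Pearson correlation of 0.66 and a Spearman correlation of 0.59, described with no test since all come from the same pair of libraries. Copy number was not measured in these files.

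**Figure D5:**
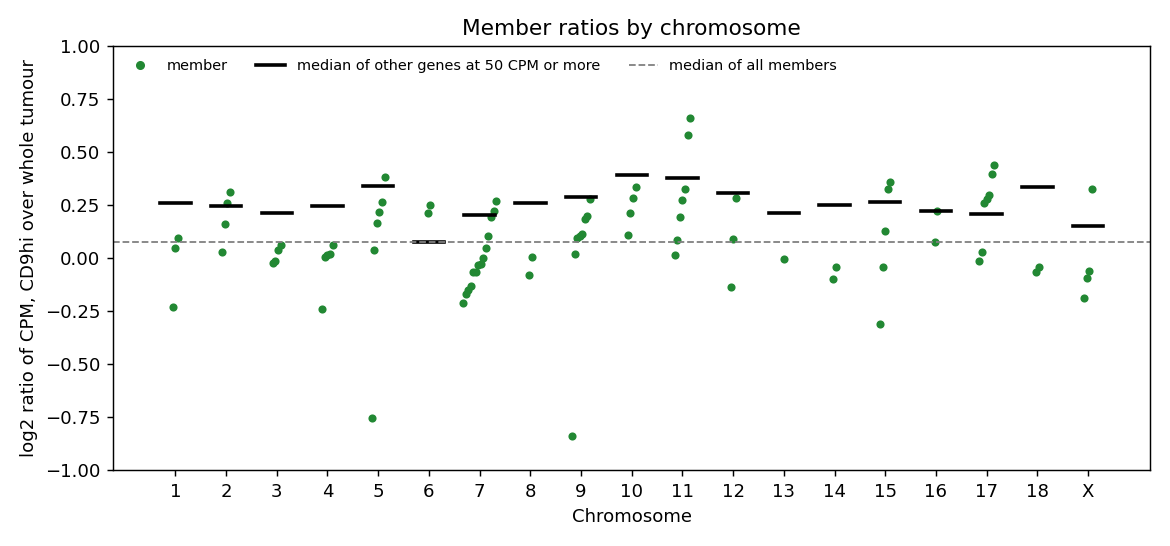
Log2 ratio of CPM in CD9hi over whole tumour for each member (green points) by chromosome, with the median of other genes at 50 CPM or more on that chromosome (black bars) and the median of all members (dashed line). Chromosome 11 holds the 2 highest members, at 0.66 and 0.58, and the lowest points are Rps27rt on chromosome 9 and Rpl37rt on chromosome 5.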

How the data were processed

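The authors deposited whole UMI counts for each gene in each barcode with no normalization, per the file headers and the values. Libraries were made with Chromium Next GEM 3′ v3.1 kits, per the labels' protocols. The genome was GRCm39 and Cell Ranger was 7.0.0, per the submitters' processing notes, while 6.1.2 stands in the file headers. Whether introns were counted is not given in the sources used here, and counting of near-identical copies can differ between settings. Counts were summed over kept barcodes and divided by their total to CPM. Ratios are log2 with 0.5 counts added. Shares have exact Clopper-Pearson intervals, CPM exact Poisson intervals and ratios conditional binomial intervals, all at 95% and for counting error only. Depth per library was 48287984 and 120451299 UMIs.

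Barcode classes were cut by level, not clustered, and no cell type was named. Between 0.667% and 23.5% of whole-tumour barcodes, and up to 22.3% of CD9hi barcodes, lay within 20% of a class limit. No doublets were removed in the values given. The members, classes and gene lists were chosen with earlier results of these data known. Members were named by a rule: the 3 of highest CPM a library, copies and relatives with their parents, the 5 highest and 5 lowest ratios between libraries, the 3 highest and lowest relative to the member median in each class contrast, those on chromosome 15, and of each list the highest and lowest measured. Others were added after their values were seen: Rplp0, Rplp2, Rpl3l, Rpl10l, Rpl39l, the further symbols under the minimum, and members beside them on other chromosomes. Unique words, identities and chromosomes came from GENCODE M21 on GRCm38, and start sequences from RefSeq on GRCm38.p6, and no coordinate of the files was mixed with them. Alternatives covered the barcode filter, doublets by Scrublet, the total, weighting, class limits and the minimum level. The code for ratios and calls was tested on simulated counts. Python 3.11.15, numpy 2.4.6, scipy 1.17.1, pandas 2.3.3, scanpy 1.11.5 and Biopython 1.88 were used.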

Additional observations from a re-analysis of the deposited data

Results flagged for a closer look

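The members' share moved in opposite directions in the libraries in 3 class contrasts. With 1 library each, the difference was not tested. For Epcam at 1500 CPM or more over under 500 CPM, the log2 ratio of shares was 0.16 in the whole tumour and -0.26 in CD9hi, so CD9hi minus whole tumour was -0.42. For Vim at 4000 CPM or more over under 1000 CPM, it was -0.46 and 0.10, a difference of 0.56. For Malat1 under 1000 over 10000 to 30000 CPM, it was -0.91 and 0.98, a difference of 1.88, and the whole-tumour class was mostly of barcodes rich in acinar enzymes. The whole-tumour value turned to 0.077 on the total without enzyme, Malat1 and mitochondrial UMIs, where CD9hi had 0.96. It turned to 0.58 in barcodes with under 1% enzyme, so the opposite direction did not hold in either. The value of 0.58 rests on 25 barcodes low in Malat1, fewer than the 50 set as a minimum. Cut by Epcam and Vim at once, the share was lower at higher Epcam in both libraries. The opposite direction across Vim was then seen only under 1000 CPM of Epcam.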

How the results depend on the processing

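No paired analysis was possible because each group had 1 library. Of 54 recomputed values, 5 reversed, 37 moved beyond the counting interval, which is narrow at these depths, and 12 stayed. For the share of CD9hi over the whole tumour (0.12), the log2 ratio reversed to -0.088 with under 10% enzyme and at least 1000 CPM of Malat1, and to -0.074 without barcodes under 1000 CPM of Malat1, a setting added after seeing the data. It was 0.16 with no barcode filter, 0.12 without doublets (52 and 207 barcodes removed), 0.020 on the total without enzyme, Malat1 and mitochondrial UMIs, 0.13 as a mean over barcodes and 0.047 without barcodes of 10% enzyme or more, also added later. The 2 members 1.5-fold from the median, Rpl37rt and Rps27rt, became 5 at a minimum of 5 CPM, with the added low copies Rpl32l and Rps3a3 below and Rpl23a above. Rpl23a also made them 3 without doublets and without barcodes under 1000 CPM of Malat1. For enzyme classes (-0.62) the other total reversed the ratio to 0.15, and it was -0.58 with no filter, -0.65 as a mean and -0.85 with wider class limits. For Malat1 in the whole tumour (-0.91) the other total reversed it to 0.077 and keeping barcodes with under 1% enzyme, added later and with 25 barcodes in the low class, to 0.58, and it was -0.99 with no filter, -0.73 as a mean and -0.92 with wider limits. For Malat1 in CD9hi (0.98) these gave 0.96, 0.97, 1.05 and 1.05, and 0.98 without doublets. For Epcam in the whole tumour (0.16) it was 0.45 with no filter, 0.19 as a mean, 0.52 over all kept barcodes and 0.10 with wider limits. For Epcam in CD9hi (-0.26) these gave -0.24, -0.19, -0.47 and -0.31, and the other total -0.24. For Vim in the whole tumour (-0.46) they gave -0.40, -0.43, -0.36 and -0.53, and the other total -0.48. For Vim in CD9hi (0.10) they gave 0.15, 0.12, 0.20 and 0.083, the other total 0.075 and doublet removal 0.091. The reversals on the other total follow from leaving enzyme, Malat1 and mitochondrial UMIs out of it, and the cause of the other shifts was not tested.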
